A study of Mus musculus with 3 samples.

Results

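The imprinted miR-379 to miR-410 cluster is a run of miRNA hairpins transcribed in 1 direction on mouse chromosome 12. Its members were taken by position on the plus strand and made up 38 of the 189 hairpins named in these libraries. In mm9 coordinates they ran from Mir379, which starts at 110947270 on chromosome 12, past Mir410, which ends at 110982005, to Mir3072, which ends at 110986170. Small RNA was sequenced from 3 replicate libraries of MIN6 cells, a mouse insulinoma line used as a model of pancreatic beta cells, all grown in DMEM with 25 mM glucose. As a dividing tumour line, MIN6 stands in for beta cells only in part. With 1 condition there was no comparison between groups, and the SD is the spread between these libraries, prepared as biological replicates. Mapped reads numbered 9269795 in replicate 1, 10816006 in replicate 2 and 10218743 in replicate 3.

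The cluster lies in the Dlk1-Dio3 imprinted region, is expressed from the maternal chromosome, and its hairpins are cut from long non-coding transcripts such as Mirg. Each hairpin can give a mature miRNA from its 5′ arm (5p) and its 3′ arm (3p), and the seed, bases 2 to 8, guides the choice of target RNAs. A shift of the 5′-start changes the seed, as does an A-to-I edit, which is read as G, where it falls within the seed. Hairpins of this cluster, among them the miR-376 family, are known substrates of the editing enzymes.

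The sequences below are the mature forms that carry the results, from RefSeq (GRCm38.p6), with the seed in capitals. The first set holds the 10 most abundant arms of the cluster, in the order of their mean level over all reads.
miR-541-5p: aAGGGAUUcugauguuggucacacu
miR-411-5p: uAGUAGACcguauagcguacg
miR-381-3p: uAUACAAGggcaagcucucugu
miR-410-3p: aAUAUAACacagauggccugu
miR-409-3p: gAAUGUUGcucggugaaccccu
miR-409-5p: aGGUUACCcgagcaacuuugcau
miR-300-3p: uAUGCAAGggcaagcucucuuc
miR-134-5p: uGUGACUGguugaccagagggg
miR-379-5p: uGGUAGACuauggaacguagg
miR-667-3p: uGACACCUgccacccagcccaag

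The next set shows how a shifted 5′-start moves the seed in some of the 5′-shifted isomiRs. In their names, -1 is 1 base upstream of the annotated start and +1 is 1 base downstream.
miR-411-5p-1: aUAGUAGAccguauagcguacg
miR-409-3p-1: cGAAUGUUgcucggugaaccccu
miR-409-3p+1: aAUGUUGCucggugaaccccu
miR-679-5p: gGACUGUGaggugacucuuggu
miR-679-5p-2: uUGGACUGugaggugacucuuggu
miR-376a-5p: gGUAGAUUcuccuucuaugagu
miR-376a-5p+1: gUAGAUUCuccuucuaugagu

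The last set groups arms of the cluster by shared seed, and adds the miR-376 arms read for editing. The pair miR-379-3p and miR-411-3p shares a seed, as do miR-379-5p and miR-1193-5p; miR-376c-3p, miR-487b-3p, miR-539-3p and miR-485-5p are named without a sequence.
miR-379-3p: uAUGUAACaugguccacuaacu
miR-411-3p: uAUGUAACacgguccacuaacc
miR-1193-5p: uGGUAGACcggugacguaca
miR-376a-3p: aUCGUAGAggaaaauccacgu
miR-376b-3p: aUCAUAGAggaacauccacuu

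The cluster was expressed at a similar level in the 3 libraries. Its level in RPM, the reads per 1000000 mapped reads, was 11243 in replicate 1, 10674 in replicate 2 and 10165 in replicate 3, or 10694 ± 539 RPM (SD, n = 3). In such bulk libraries, fewer cells expressing the cluster and less RNA per cell cannot be told apart. Of these reads 99.8% started in the hairpins. Of all reads at named hairpins, the cluster held 1.49% in replicate 1, 1.41% in replicate 2 and 1.36% in replicate 3. The 95% Wilson intervals of these shares, from 1.48% to 1.5% in replicate 1 and from 1.35% to 1.36% in replicate 3, did not overlap. Intervals and floors take in counting error alone, as molecules were not tagged before amplification. Without miR-375, the most abundant miRNA of these cells at 365690 ± 19121 RPM (SD, n = 3), the shares were 2.75%, 2.75% and 2.78%, and replicate 3 was no longer the lowest.

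The beta cell miRNAs miR-7a-5p and miR-184-3p were present at 435 ± 44.9 and 139 ± 34.5 RPM (SD, n = 3). The liver, neuron, muscle, blood, mesenchymal and acinar markers listed for comparison were not among the named hairpins, and their levels were not analysed here. The nearest group of the same imprinted locus, listed here as antisense to Rtl1, had 8 named hairpins and was more abundant. It had 33606, 29365 and 27599 RPM in replicates 1 to 3. Most of it came from Mir127, at 27147 ± 2915 RPM (SD, n = 3).

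Of the 38 hairpins, 35 had at least 10 reads in every library and 30 had at least 100. Mir654 and Mir453 had no read in any library, which allows up to 0.324 RPM in replicate 1, the smallest library (3 reads), and Mir544 had 0, 2 and 1 reads. Expression was concentrated in few arms, since 2 arms held 63.3% of the reads of all arms and 10 arms held 90.8%.

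**Figure D1:**
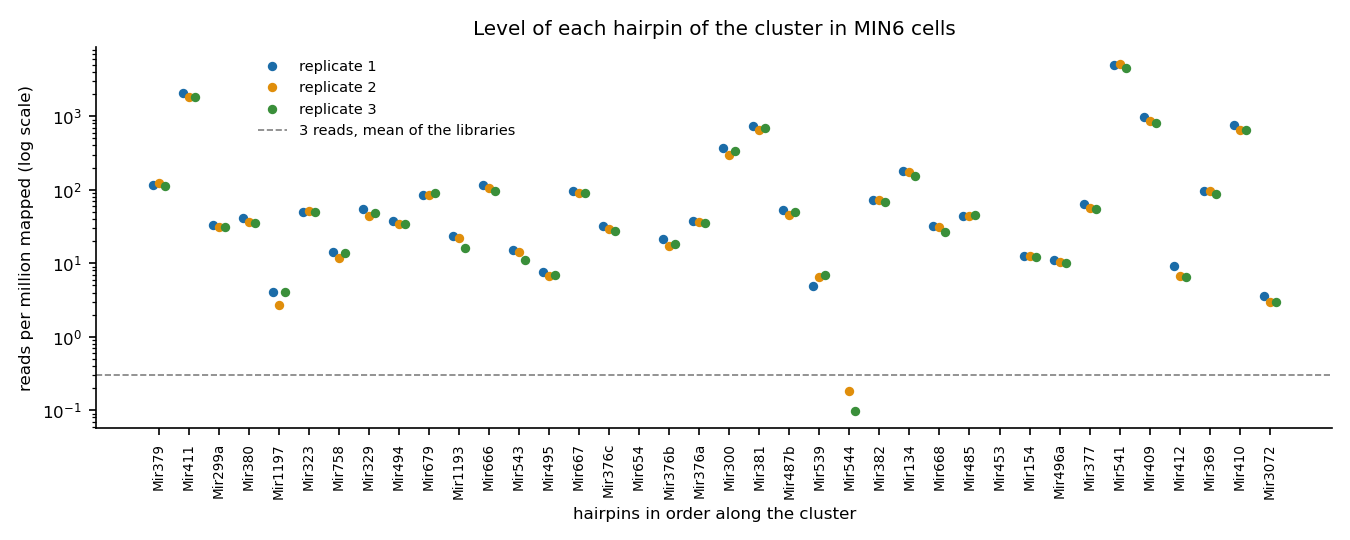
Level of the 38 hairpins in the order of the cluster, in RPM on a log scale, with 1 point per library and a dashed line at the level of 3 reads. Mir541 is highest, and Mir654 and Mir453, with no reads, have no points.

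The most abundant member was miR-541-5p, with 4969, 5066 and 4588 RPM in replicates 1 to 3, or 4874 ± 252 RPM (SD, n = 3). Its 5′-start ranked 22 among all 5′-starts of the libraries. Next came miR-411-5p with 2011, 1811 and 1802 RPM, highest in replicate 1, at rank 54. The arms miR-381-3p and miR-410-3p reached 686 ± 47.9 and 679 ± 61.6 RPM (SD, n = 3), which did not differ beyond their spread. Without mismatched reads the order changed, with miR-410-3p at 710.5, miR-409-3p at 639 and miR-381-3p at 638 RPM. From the Mir409 hairpin, both arms were abundant. Its 3p arm had 561, 487 and 515 RPM, and miR-409-5p, which started at 110981382, had 412, 369 and 291 RPM, lowest in replicate 3. Levels of miR-300-3p were 374, 295 and 335 RPM. The arm miR-134-5p, known from work on neurons, had 163 ± 12.2 RPM (SD, n = 3). At the foot of the 10 stood miR-379-5p with 95.6 ± 8.01 RPM and miR-667-3p with 88.8 ± 4.31 RPM (SD, n = 3), whose spreads overlapped. The level of miR-667-3p rested largely on reads with mismatches, and was 35.2 RPM without them.

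Levels fell off further below these 10. The next arms were miR-679-5p with 83.8 ± 3.11 RPM and miR-666-5p with 80.7 ± 7.1 RPM (SD, n = 3), whose ranges over the libraries overlapped that of miR-667-3p. In the miR-376 family, miR-376c-3p had 31.8, 28.8 and 27.1 RPM, the most of any single arm. As a whole hairpin Mir376a was higher, at 37.1, 36.1 and 34.9 RPM. Both arms of Mir376a were read, miR-376a-5p at 24.5 ± 0.396 and miR-376a-3p at 11.2 ± 1.52 RPM (SD, n = 3). The same order held for Mir376b, with 11.7 ± 1.3 RPM for its 5p arm and 6.83 ± 0.717 RPM for its 3p arm (SD, n = 3).

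Counting only reads at the annotated start, which carry the seed, miR-379-3p and miR-411-3p together reached 53.4 ± 5.32 RPM, and miR-379-5p with miR-1193-5p 93.8 ± 8.28 RPM (SD, n = 3). The other seeds shared within the cluster were low. The pair miR-376b-5p and miR-376c-5p had 11.3 ± 1.15 RPM and the pair miR-410-5p and miR-494-5p 1.1 ± 0.262 RPM (SD, n = 3). For miR-453 with miR-496a-5p, 0, 0 and 1 reads were counted, and for miR-1197-5p with miR-758-5p none. In all, 6 annotated seeds were shared by arms of the cluster and 11 occurred in a mature miRNA elsewhere, counts given without a share over other arms. Among the latter, miR-410-3p shares its seed with miR-344d-3p and miR-344e-3p, and miR-329-3p with miR-362-3p.

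The median variation between libraries was alike in the cluster and outside it. Among 5′-starts with at least 100 reads in every library, the median coefficient of variation was 8.34% for 43 cluster starts and 8.6% for 314 other named starts. The lower and upper quartiles were 6.27% and 9.2% in the cluster, against 5.62% and 12.1% outside, and the difference was not tested. Replicate 1 was the highest library for 32 of the 43 cluster starts (74.4%), against 227 of the 314 others (72.3%).

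Arm use differed widely between hairpins. More 3p than 5p reads were counted in every library for 21 of the 35 detected hairpins (60%), against 65 of 151 named hairpins outside the cluster (43%), and the other 14 had more 5p reads in every library. Hairpins outside were all placed by their own bases, whereas 24 of the 38 in the cluster were placed by spacing, so the sets are not alike. Mir381 and Mir410 gave nearly only 3p reads, 99.9% each, whereas Mir541 gave 0.0216% ± 0.00389 3p reads (SD, n = 3). Mir369 was near balance, with 51%, 51% and 50.6% of its reads on the 3p arm. Mir409 had 57.7%, 56.9% and 63.9%.

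**Figure D2:**
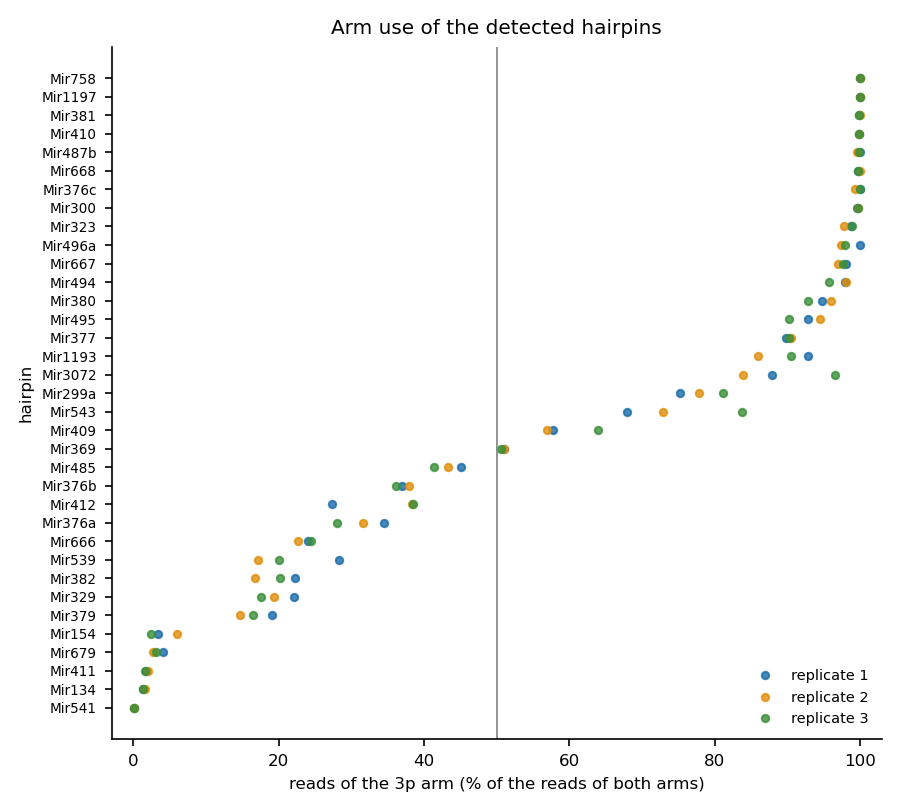
Share of the reads of both arms that came from the 3p arm, in percent, for the 35 detected hairpins, with 1 point per library and a line at 50%. Hairpins run from Mir541 near 0% to Mir1197 and Mir758 at 100%, and Mir369 lies by the line.

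The most abundant 5′-start was not the annotated one in 5 of 32 annotated arms with at least 100 reads in every library (15.6%), against 18 of 225 arms outside the cluster (8%). The sets were chosen differently, as hairpins outside were all placed by their own bases. Among the 5, miR-377-3p and miR-376a-5p come from hairpins placed by spacing. The difference was not tested. Reads of miR-679-5p began 2 bases upstream in 97.2%, 96.8% and 97.6% of cases. For miR-382-3p, the start 2 bases upstream held 97.3%, 97.7% and 98.6% of the reads. A start 3 bases upstream held 94.2%, 94.6% and 92.9% of miR-377-3p. In miR-376a-5p the +1 start held 65.2%, 62.6% and 69.4%. Starts of miR-485-3p were spread, with 44.6%, 37.6% and 48.2% at 3 bases downstream and 33.7%, 29.3% and 28.8% at 1 base downstream.

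Other annotated arms kept the annotated start as the main one, while a second start held a sizeable share of their reads. The second starts of miR-299a-3p, miR-668-3p and miR-485-5p had fewer than 100 reads in every library. For miR-411-5p, the -1 start held 15.6%, 15.8% and 16.2% of the reads and was itself expressed at 298 ± 15.1 RPM (SD, n = 3), close to the level of all miR-300-3p reads. The 3p arm of Mir409 had 3 abundant starts, at 53.4% ± 1.29 for the annotated one (SD, n = 3), 29.5%, 28.2% and 26.5% for -1 and 18.2%, 18.2% and 18.7% for +1. In contrast, 99.95% ± 0.0214 of miR-409-5p reads (SD, n = 3) shared 1 start. A -1 start held 32.6% ± 4.26 of miR-299a-3p and 34.6% ± 1.78 of miR-323-3p (SD, n = 3). For miR-668-3p, 19.8% ± 1.26 of the reads began 2 bases upstream (SD, n = 3). The arm miR-485-5p had no annotated start here, and 17.1%, 17.1% and 13.3% of its reads began 2 bases upstream of its most abundant start.

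**Figure D3:**
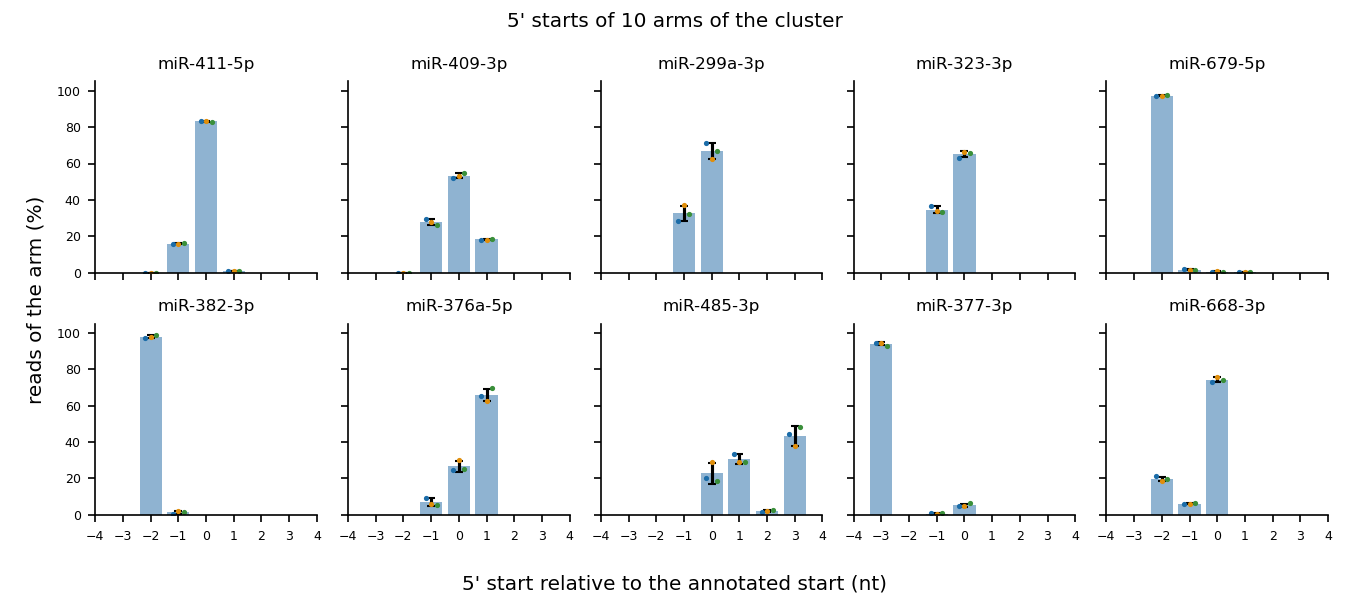
Share of the reads of 10 arms by 5′-start, in percent against the distance from the annotated start in nt, with bars for the mean, error bars for the SD and points for the 3 libraries. In miR-679-5p, miR-382-3p and miR-377-3p nearly all reads begin upstream of the annotated start.

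Reads ended in a mismatching base, counted as a 3′-non-templated addition, in 6.85%, 7.05% and 7.22% of the reads of cluster arms. Outside the cluster the share was 16% ± 0.405, or 10.5% ± 0.183 without miR-375 (SD, n = 3). The added base was T in 77.9% ± 0.308 of these cluster reads and A in 17.7% ± 0.29 (SD, n = 3). Abundant arms differed widely in this share. For miR-667-3p it was 60.4%, 58.8% and 59.8%. Reads of miR-134-5p ended so in 32.2%, 32.5% and 30.9% of cases. The share was 28% ± 0.679 for miR-300-3p and 8.71% ± 0.263 for miR-541-5p (SD, n = 3). Far fewer such reads came from miR-411-5p, at 0.332% ± 0.0179, and miR-410-3p, at 0.559% ± 0.0579 (SD, n = 3).

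Internal mismatches were read at all bases except the last 3 of a read. A substitution was called where it reached 1% of at least 100 covering reads in every library and was at least 5 times as frequent as the other 2 mismatching bases together. By this rule, 0 of 184 A positions in the cluster were called for A-to-G (0%), as were 0 of 1129 outside it (0%). A-to-C was called at 45 of the 184 cluster positions (24.5%) and at 316 of the 1129 others (28%), so the cluster was close to the background. Where A-to-C was frequent, A-to-G at the same base could not meet the rule, so a count of 0 does not show that editing was absent. The other 10 kinds of substitution were called at 5 of 1753 (0.285%) in the cluster and 35 of 12436 (0.281%) outside.

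The A-to-C mismatches followed the position in the read. At position 12 of the read, 18% ± 0.253 of cluster reads with a genome A had C, and 16% ± 0.132 of reads at other named hairpins (SD, n = 3). At position 6 the shares were 7.95% ± 0.228 and 10.4% ± 0.172, and at position 5 they were 0.00151% ± 0.00262 and 0.000881% ± 0.000346 (SD, n = 3). A-to-G at position 5 was 1.06% ± 0.144 in the cluster (SD, n = 3), but most of these reads came from Mir411. Without that hairpin it was 0.118% ± 0.0285, against 0.0106% ± 0.00163 outside the cluster (SD, n = 3). Nearly all of the remaining cluster reads with G at position 5 were of miR-379-5p, with 8, 10 and 5 reads in replicates 1 to 3. That share thus rests largely on miR-379-5p and not on the cluster at large. Outside the cluster A-to-G was highest at position 1 among the first 20 positions, at 0.124% ± 0.00575 (SD, n = 3).

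**Figure D4:**
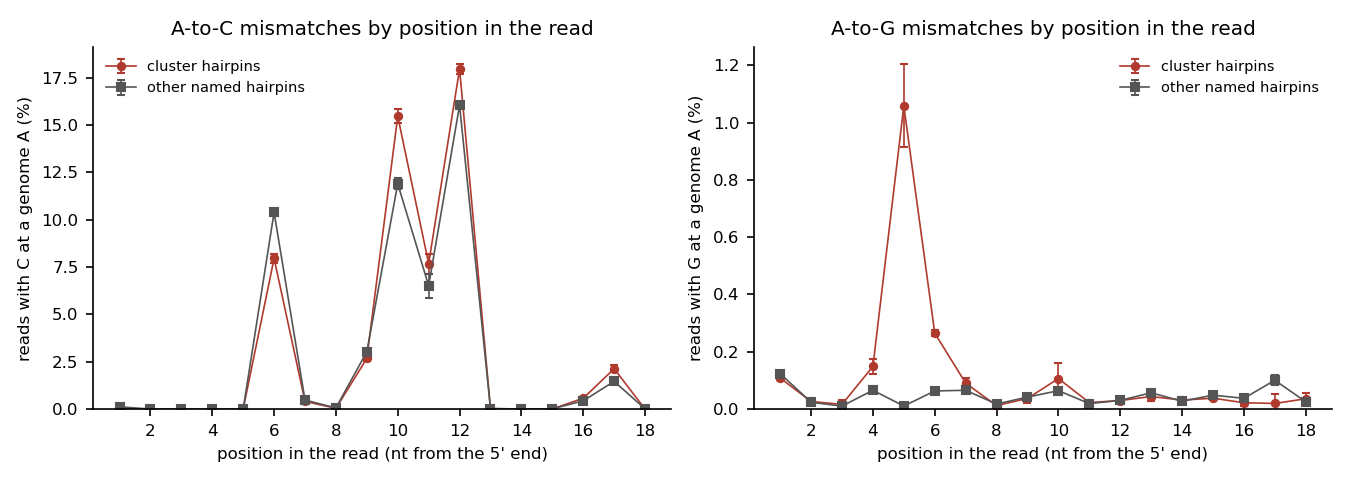
Share of reads with C (left) or G (right) at a genome A, in percent by position in the read, for cluster hairpins and other named hairpins, as mean and SD of 3 libraries. A-to-C peaks at the same positions in both sets, and the A-to-G peak of the cluster at position 5 comes mostly from Mir411.

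Without the comparison with the other bases, which was dropped after the values were seen, A-to-G passed 1% in every library at 2 of the 184 cluster positions (1.09%) and at 2 of the 1129 others (0.177%). Those outside were A16G of miR-378d, at 3.11%, 4.38% and 3.27%, and A7G of miR-3099-3p, at 5.11%, 3.24% and 2.76%. Positions are counted from 1 at the mature 5′ base. In miR-411-5p, A5G was read in 406 of 18646 reads in replicate 1 (2.18%), in 1.91% of 19589 reads in replicate 2 and in 395 of 18419 reads in replicate 3 (2.14%), while A5C was at 1.34% ± 0.14 (SD, n = 3). In miR-376c-3p, A6G was read in 9 of 295, 10 of 312 and 9 of 277 reads, or 3.05%, 3.21% and 3.25%, with 95% Wilson intervals from 1.61% to 5.7% in replicate 1. There A6C was more frequent, at 7% ± 0.831 (SD, n = 3). Positions in miR-376c-3p are counted from its most abundant start, and its hairpin was named by spacing alone.

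Reads of miR-411-5p were then split by 5′-start, a split chosen after the values were seen. Base 5 lies at position 6 of reads with the -1 start, and there A5C reached 9.15%, 7.47% and 8.71% of the reads. At the annotated start, A5C was read in 0 of 15564, 0 of 16320 and 0 of 15271 reads, while A5G was read in 252, 203 and 238 of them, or 1.62%, 1.24% and 1.56%. The -1 start carried A5G in 4.94%, 5.24% and 4.72% of its reads, above the annotated start in every library, with Wilson intervals that did not overlap. At the +1 start A5G was read in 10 of 163, 10 of 173 and 16 of 160 reads, or 6.13%, 5.78% and 10%. The +1 start was thus above the annotated start too, and its intervals overlapped those of the -1 start in replicates 1 and 2 but not in replicate 3.

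**Figure D5:**
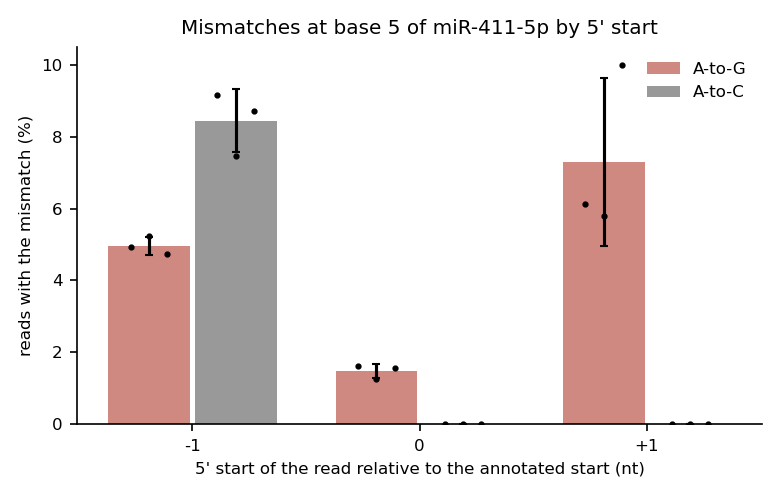
Share of miR-411-5p reads with G or C at base 5, in percent, by the 5′-start of the read, with bars for the mean, error bars for the SD and points for the 3 libraries. A-to-C is seen at the -1 start, and A-to-G at all 3 starts.

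No other arm known for editing passed 1% in every library with at least 100 covering reads. In miR-379-5p, A5G was read in 0.939%, 0.971% and 0.543% of the reads. For miR-376b-3p, A6G was read in 2 of 71, 2 of 69 and 3 of 66 reads, fewer than the 100 covering reads of the rule. Its A6C was more frequent, at 8.22% ± 2.05 (SD, n = 3), so A6G did not pass the comparison with the other bases either. In miR-376a-3p, A6G was read in 0 of 120, 0 of 125 and 0 of 102 reads, which allows up to 3.1%, 2.98% and 3.63% by the Wilson interval. In miR-381-3p, A4G was at 0.135% ± 0.0335 (SD, n = 3). Levels of miR-487b-3p, miR-329-3p and miR-539-5p were 49.2 ± 3.19, 9.56 ± 2 and 4.8 ± 1.08 RPM (SD, n = 3). In miR-487b-3p, A-to-G was at most 0.452% in any library at the A positions read. A level of 1% was not detectable in the others. In miR-329-3p, A6G was read in 0 of 110, 0 of 92 and 0 of 86 reads, which allows up to 3.37%, 4.01% and 4.28%. In miR-539-5p it was read in 0 of 33, 0 of 58 and 1 of 56 reads, with upper limits of 10.4%, 6.21% and 9.45%. The hairpin Mir539, like Mir376c, was named by spacing alone.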

How the data were processed

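The authors deposited expected counts: each alignment has the reads that support it, and a read with several equally good loci is divided among them. The submitters' processing notes name cutadapt, Bowtie and mm9; by the published methods, reads left after exact alignment were aligned with mismatches around exact matches.

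Alignments marked exact ended 1 base early, which was corrected. Hairpins were named by comparing RefSeq sequences (GRCm38.p6) with bases excluded by mismatches, at 20 bits, with 1072 hairpins searched, 165 placed and 0 reversed sequences placed. The support needed for an excluded base, 0.9 reads, was lowered from 3 after 99 hairpins were placed with the latter. Of the 38 cluster hairpins, 14 were placed this way. The other 24 were placed by their spacing from these 14 in RefSeq. All of them lie between members of the 14 except Mir3072, which lies beyond Mir410, the last of the 14. Of the 24, 21 had at least 1 informative base, and 0 bases contradicted a placement. Mir654, Mir544 and Mir453 had 0 bits, so no base could contradict their placement. A sequence search of the window gave the same place for 13 of the 24, put 8 elsewhere and 3 nowhere. These 11 (Mir1197, Mir758, Mir495, Mir376c, Mir654, Mir539, Mir544, Mir453, Mir154, Mir496a and Mir3072) rest on spacing alone. An arm took starts within 5 bases of its annotated start, a reach set here. The split of editing by 5′-start was chosen after seeing the data.

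RPM used all mapped reads, 9269795, 10816006 and 10218743 per library, and 3 reads (0.324, 0.277 and 0.294 RPM) were taken as what a count of 0 allows. Alternatives changed the denominator, the reads counted, the thresholds and the libraries included. Named miRNAs were the 10 most abundant arms, arms with shifted starts, arms known for editing, groups sharing a seed and members with no reads. Members and lists were chosen with earlier results of these data known. Naming and calling were also run on simulated data. The outcome is not reported here and does not measure how well either works in these libraries. Python 3.11.15, numpy 2.4.6, pandas 2.3.3 and matplotlib 3.10.9 were used.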

Additional observations from a re-analysis of the deposited data

Results flagged for a closer look

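Reads in the window but outside the 38 hairpins, on the plus strand, averaged 227 per library, with 201, 232 and 248 reads in replicates 1 to 3. They were singled out because they belong to none of the members compared and exceed the 3 reads that a count of 0 allows. That floor is for a single feature, not for a whole window. Of these reads, 60, 62 and 83 began at 110978701 and 28, 43 and 41 at 110978700. Both starts lie upstream of Mir377, which starts at 110978720, and beyond the reach of 5 bases.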

How the results depend on the processing

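No paired analysis was possible because the 3 libraries come from a single condition. The cluster total moved with the denominator, to 14214 RPM of reads at named hairpins and 16854 RPM of mapped reads without miR-375, and to 10150 RPM without mismatches and 12548 RPM with whole-number weights, where both the cluster and the mapped reads change. Alignments with a whole-number weight, which can include divided reads that sum to one, held 99.9% of the cluster's and 85.2% of the mapped reads, so that move lies in the denominator. Leaving out a replicate gave 10420 to 10959 RPM. Its share of named reads was 1.31% without mismatched reads. With 100 reads in place of 10, 43 starts were detected in place of 91. No arm of at least 1000 reads in every library had a shifted main start, 0 in place of 5. Only the arms from miR-541-5p to miR-134-5p, in the order of mean level, had as many reads. The most abundant of the 5, miR-679-5p, had 760, 887 and 893 reads, so none of them could be counted. No share outside the cluster was taken at this threshold. The count of A-to-G positions was 0 under the other alternatives run, and 2 without the comparison with other mismatches or 1 with the main start of each arm only, both chosen after seeing the data. Excluding genome bases only with 3 supporting reads, also chosen after seeing the data, gave a share of 1.44%. The causes of the other changes were not tested. Of 106 alternative values for single arms and positions, 40 moved beyond the spread between libraries, 16 of them with named reads as denominator, 14 with whole-number weights and 10 without mismatched reads; the level of miR-667-3p was 35.2 RPM in the last case. Depth limited miR-539-5p, whose 33, 58 and 56 covering reads could not show a level of 1%.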

Other observations

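Of 35 cluster arms with at least 100 reads in every library, 17 began with T, 11 with A, 5 with G and 2 with C at their main start. Of 235 arms outside, 101 began with T, 57 with A, 12 with G and 65 with C. These counts were looked at after the values were seen, and no test was made.

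Read lengths in the window had 2 peaks, with 29% ± 0.616 of the reads at 21 nt and 20.5% ± 0.778 at 25 nt (SD, n = 3). The annotated length of miR-541-5p, the most abundant arm, is 25 nt, and 44% of its reads had that length.

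The arms miR-379-3p and miR-411-3p differ at T10C and T22C, with positions counted from the mature 5′ base and the base of miR-379-3p first. In miR-379-3p, T10C was called, in 8.5, 9 and 9.5 reads. This is the base of miR-411-3p. Of these reads, 29.4%, 0% and 89.5% lay in alignments whose summed weight was not a whole number, and reads divided among loci can also sum to a whole number.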
